A study of Mus musculus with 18 samples.

Results

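The exon bins examined here were those used less in skeletal muscle of HSA-LR mice than of WT mice, in the gastrocnemius and in the quadriceps alike. An exon bin is a stretch of exon between neighbouring ends of annotated exons, and its usage is its count as a percent of the summed bin counts of its gene in the same library. A bin was taken as lost where, in each muscle, the mean usage of HSA-LR mice was at most 0.6 times the WT mean, all 3 HSA-LR values lay below all 3 WT values, and the mean WT count was at least 20. Its gene had to hold at least 2 bins and at least 500 counts in each of the 18 libraries. The rule kept 296 bins of 167 genes, out of 124220 bins of 7527 genes that met its count limits and out of 391858 bins of 46725 genes in the series. WT and HSA-LR usage thus chose these bins, so the difference between those 2 groups is described with no test.

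Libraries of the gastrocnemius and of the quadriceps were labelled as replicates 1 to 3, called mouse 1 to 3 here, in each of 3 groups, which were WT, HSA-LR and HSA-LR given Pip6a-PMO. All were of the FVB strain, aged 20 weeks and labelled male except WT mouse 2, and the WT and HSA-LR groups were labelled untreated. HSA-LR mice carry a human skeletal actin transgene with expanded CTG repeats that is expressed in skeletal muscle, and all HSA-LR and treated mice share it. Treated mice received intravenously 160 µL of a morpholino oligonucleotide against the CUG repeats, conjugated to the cell-penetrating peptide Pip6a, at a dose that the sources used here do not give for the sequenced mice. The same volume is listed for the libraries labelled untreated as well. Libraries were stranded and made from polyA-selected RNA.

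Library totals ran from 98916844 to 143135976 counts, and no pair of libraries held identical values. The summed level of 8 muscle fiber genes was lower in all HSA-LR than in all WT libraries of the same muscle, at 195000 to 206000 against 208000 to 233000 CPM (the count scaled to a common library total) in the gastrocnemius and 192000 to 206000 against 218000 to 232000 CPM in the quadriceps, and was 205000 to 255000 CPM in treated libraries. Y-linked genes summed to 154 and 181 CPM in both muscles of WT mouse 2, which is labelled female, and to 1.15 and 1.43 CPM in both muscles of WT mouse 3, which is labelled male, against 119 to 187 CPM in the other libraries. The results below are therefore also given without WT mouse 2 or 3 where that matters. The summed level of 4 macrophage genes was 46.8 to 67.0 CPM in HSA-LR libraries, 19.3 to 39.6 in WT and 20.0 to 29.3 in treated libraries, with none of the 4 genes at 0 in any library. The sum of 2 satellite cell genes was also higher in HSA-LR than in WT libraries of the same muscle (1.95 to 2.47 against 1.19 to 1.89 CPM in the gastrocnemius, and 2.11 to 2.54 against 0.676 to 1.86 CPM in the quadriceps). In the quadriceps the sum of 2 fibroblast genes was higher in HSA-LR libraries (430 to 517 against 277 to 361 CPM), and those of 3 endothelial genes (111 to 157 against 167 to 225 CPM) and 3 Schwann cell genes (17.2 to 28.0 against 38.9 to 52.2 CPM) were lower, as was that of 3 erythroid genes in the gastrocnemius. The part of these levels in the usage values was not tested. In bulk tissue, fewer cells of a type and less RNA per cell cannot be told apart.

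Muscleblind-like (MBNL) proteins bind RNA and set the inclusion of many alternative exons as muscle matures, and they also act on the choice of transcript ends. RNA with expanded CUG repeats binds MBNL proteins in nuclear foci, as in myotonic dystrophy type 1, and exons that depend on them then follow an immature pattern. An antisense oligonucleotide against the repeats competes for that binding, and the usage of such exons is a common readout of its action.

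The sequences of 10 lost cassette exons are shown because usage of these exons is described below, gene by gene. A cassette exon here is a whole annotated internal exon that at least 1 annotated transcript of the gene skips. Sequences are GENCODE M21 transcripts on GRCm38, given 5′ to 3′ on the transcript strand, and capitals mark the letters TGCT and the letters TGCC, beside the letters CGCT and the letters CGCC, which are the forms of the YGCY motif that MBNL proteins bind. The minus strand of chromosome 7 holds Atp2a1 bin 3 (chr7:126446545-126446586) and Ryr1 bin 45 (chr7:29056234-29056248). Phka1 bin 17 (chrX:102557096-102557272), Epb41 bin 15 (chr4:131955543-131955578) and Vps39 bin 40 (chr2:120346857-120346889) also lie on minus strands, as do Camk2b bins 17 (chr11:5978399-5978512) and 24 (chr11:5987057-5987131). On plus strands lie Rapgef1 bin 19 (chr2:29720643-29720738), Clasp1 bin 45 (chr1:118512175-118512222) and Mef2d bin 9 (chr3:88158221-88158355). All 10 are coding exons.
Atp2a1 bin 3: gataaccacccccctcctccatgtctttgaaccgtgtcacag
Ryr1 bin 45: gcaggagacgtacag
Phka1 bin 17: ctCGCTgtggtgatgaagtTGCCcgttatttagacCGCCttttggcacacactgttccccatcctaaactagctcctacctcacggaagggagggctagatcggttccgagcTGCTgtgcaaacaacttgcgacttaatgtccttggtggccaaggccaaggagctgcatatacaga
Camk2b bin 17: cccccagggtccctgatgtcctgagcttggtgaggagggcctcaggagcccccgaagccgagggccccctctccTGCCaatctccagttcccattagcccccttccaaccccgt
Camk2b bin 24: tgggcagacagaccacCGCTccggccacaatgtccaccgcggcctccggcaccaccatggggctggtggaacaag
Rapgef1 bin 19: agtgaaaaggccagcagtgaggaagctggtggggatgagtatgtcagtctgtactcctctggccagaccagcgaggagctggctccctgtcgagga
Clasp1 bin 45: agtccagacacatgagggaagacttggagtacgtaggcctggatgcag
Mef2d bin 9: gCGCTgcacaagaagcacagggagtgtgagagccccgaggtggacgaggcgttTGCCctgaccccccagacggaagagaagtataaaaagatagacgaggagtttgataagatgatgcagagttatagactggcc
Epb41 bin 15: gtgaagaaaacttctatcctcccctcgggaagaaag
Vps39 bin 40: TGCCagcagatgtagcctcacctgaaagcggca

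Each of these 10 exons has a length divisible by 3, and 5 of them hold none of the 4 motifs. Camk2b bins 15 and 16 have 108 of 129 positions in common (83.7%), so reads may be split between them and their separate values are uncertain.

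**Figure D1:**
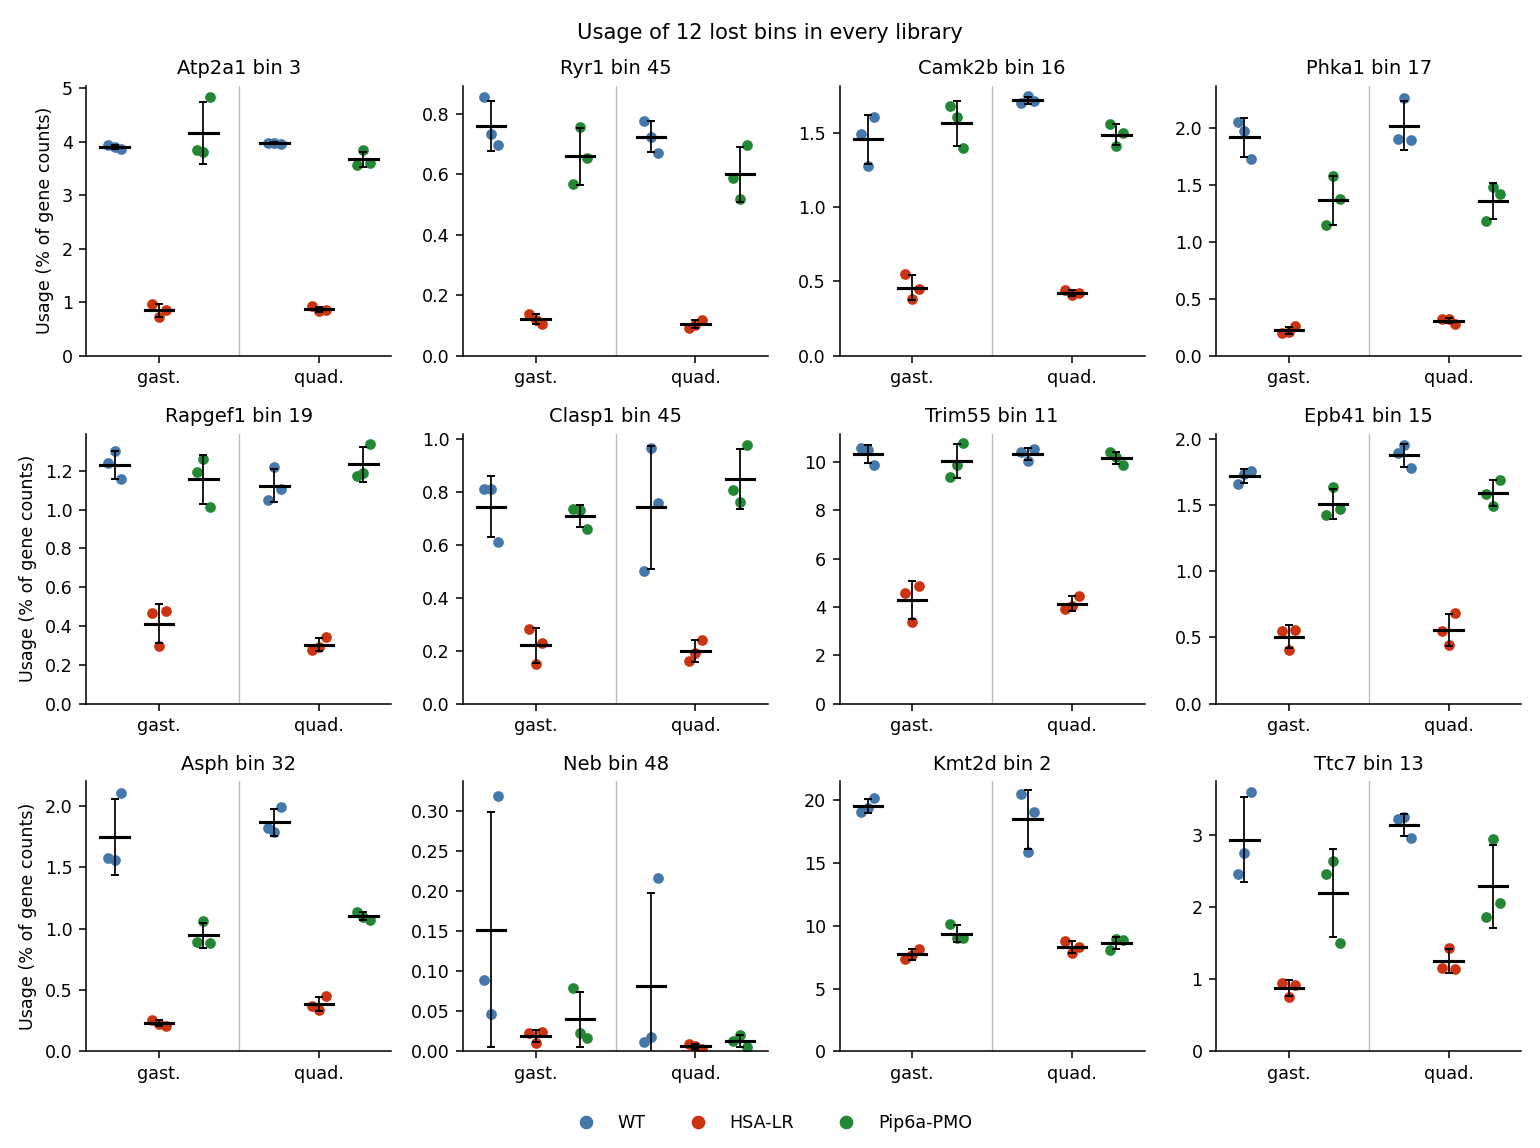
Usage (bin count as a percent of the gene's counts) of 12 lost bins in each library, with the mice of a group side by side in the order 1 to 3 and bars for the mean ± SD (n = 3), cut at 0 in Neb bin 48. In Atp2a1 bin 3, the treated mice lie at 3.57% to 4.84% and the HSA-LR mice at 0.729% to 0.967%, while in Neb bin 48 WT mouse 3 stands far above the other WT mice.

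Genes that move calcium between the sarcoplasmic reticulum and the cytosol held lost bins. Atp2a1 encodes the calcium pump SERCA1, and usage of its bin 3 was 3.93%, 3.91% and 3.86% in the gastrocnemius of WT mice, 0.967%, 0.729% and 0.861% in HSA-LR mice and 3.85%, 3.81% and 4.84% in treated mice. In the quadriceps the values were 3.98%, 3.98% and 3.95% in WT, 0.923%, 0.831% and 0.861% in HSA-LR and 3.57%, 3.84% and 3.61% in treated mice. Treated mice were thus clear of HSA-LR mice in each muscle, lay on both sides of the WT range in the gastrocnemius and below it in the quadriceps. Relative to its gene, the bin rose from HSA-LR to treated mice by a log2 FC of 2.31 (adjusted p = 1.03e-18) in the gastrocnemius and 2.07 (adjusted p = 2.81e-15) in the quadriceps, by edgeR's test of a bin against the other bins of its gene. The rule chose HSA-LR usage low and WT usage high, and these tests use the same libraries. The p-values of single bins here and below are therefore no independent evidence of a treatment effect. The mean count of this bin was 265600 in WT gastrocnemius and 39260 in HSA-LR gastrocnemius, so counting error is negligible there.

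Ryr1, the calcium release channel of the triad, lost its 15-nt bin 45. WT gastrocnemius had usages of 0.853%, 0.732% and 0.695%, HSA-LR 0.138%, 0.119% and 0.105%, and treated 0.567%, 0.756% and 0.654%. The WT quadriceps had 0.774%, 0.724% and 0.671%, HSA-LR 0.0925%, 0.102% and 0.119%, and treated 0.586%, 0.517% and 0.695%. The exon was 6.30 and 6.91 times lower in HSA-LR mice in the 2 muscles, and treated mice overlapped WT mice in each. It rose on treatment by 2.46 (adjusted p = 1.9e-11) and 2.52 (adjusted p = 1.75e-05) on the log2 scale.

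Asph encodes an enzyme and also the triad proteins junctin and junctate, and its lost bins 32 and 33 are parts of an alternative last exon. Bin 32 was used at 1.57%, 1.56% and 2.11% in WT gastrocnemius, 0.253%, 0.225% and 0.208% in HSA-LR and 0.890%, 1.06% and 0.879% in treated mice. Its quadriceps values were 1.82%, 1.79% and 1.99%, 0.371%, 0.335% and 0.448%, and 1.13%, 1.10% and 1.07% in the same order of groups. Treated mice lay between the other groups with no overlap, at a recovery of 47.2% and 48.3%, where recovery is the treated minus HSA-LR mean as a percent of the WT minus HSA-LR mean. Bin 32 rose on treatment in both muscles (log2 FC of 2.02 at adjusted p = 6.71e-17, and 1.51 at adjusted p = 1.16e-07) and remained under the WT level in the gastrocnemius (-0.92, adjusted p = 0.00393). Without WT mouse 3 the latter was -0.75 (adjusted p = 0.305), and the lower treated usage was not called there.

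Of 25 eligible genes on the list of calcium handling and triad genes, these 3 held a lost bin (12%), against 2.22% of all 7527 eligible genes. This list and those below were chosen with earlier results of these data known, so their shares are descriptions. Sarcolemmal channels and pumps had 1 of 14 (7.14%), namely Chrne, the epsilon subunit of the acetylcholine receptor. Chrne bin 7, annotated only in a transcript that retains an intron, had a mean usage of 2.49% ± 0.192 (SD, n = 3) in WT, 1.49% ± 0.331 in HSA-LR and 2.53% ± 0.374 in treated gastrocnemius. Its rise missed the threshold in each muscle (log2 FC of 0.79 and 1.03, adjusted p = 1.0 in both).

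Among kinases and phosphatases of calcium signalling, 4 of 14 genes held a lost bin (28.6%). Phka1, the muscle regulatory subunit of phosphorylase kinase, had usages of bin 17 of 2.06%, 1.97% and 1.73% in WT, 0.203%, 0.206% and 0.261% in HSA-LR and 1.15%, 1.58% and 1.38% in treated gastrocnemius. Quadriceps usage was 1.91%, 2.27% and 1.90% in WT, 0.321%, 0.327% and 0.284% in HSA-LR and 1.19%, 1.49% and 1.43% in treated mice. All treated values lay above all HSA-LR values and below all WT values, and the rise was the strongest by p among the kinase bins, of 2.63 on the log2 scale in the gastrocnemius (adjusted p = 2.6e-23) and 2.14 in the quadriceps (adjusted p = 2.58e-16). The remaining gap to WT, at -0.48 and -0.59, was not called (adjusted p = 1.0 in both).

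Camk2b encodes the beta subunit of calcium/calmodulin-dependent protein kinase II and lost 4 coding cassette exons. Bin 16 was used at 1.49%, 1.27% and 1.6% in WT gastrocnemius, 0.547%, 0.384% and 0.446% in HSA-LR and 1.68%, 1.61% and 1.40% in treated mice. Bin 24 was used at 3.11%, 2.79% and 2.78% in WT, 0.891%, 0.808% and 0.712% in HSA-LR and 2.36%, 2.86% and 2.49% in treated gastrocnemius. In these exons the treated and WT ranges overlapped in the gastrocnemius. All 4 rose on treatment in both muscles, with log2 FCs of 1.61 to 1.76 in the gastrocnemius and 1.51 to 1.84 in the quadriceps, and their median recovery was 105% and 91.7%. The gene total of Camk2b had a log2 FC of HSA-LR against WT of 0.16 in the gastrocnemius and 0.44 in the quadriceps, given as a description.

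The other kinase and phosphatase members differed in level. Camk2d bin 80, part of a last exon, had a mean usage of 1.22% ± 0.217 (SD, n = 3) in WT, 0.514% ± 0.0461 in HSA-LR and 1.04% ± 0.264 in treated gastrocnemius. It rose on treatment in each muscle (log2 FC of 0.99 at adjusted p = 0.0199, and 0.95 at adjusted p = 0.0864). Its own level did not differ by much, at 0.758 CPM in WT and 0.759 CPM in HSA-LR gastrocnemius, while the other bins of Camk2d stood at 60.8 and 147 CPM. Ppp1r12b bin 9, a cassette exon of a myosin phosphatase regulatory subunit, recovered by 101% and 119% without passing the test (log2 FC of 1.15 at adjusted p = 0.233, and 1.40 at adjusted p = 0.515).

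Sarcomeric genes held a lost bin in 6 of 47 cases (12.8%). Trim55, a muscle ubiquitin ligase of the sarcomere, had usages of its coding bin 11 (chr3:19674254-19674541) of 10.6%, 10.5% and 9.89% in WT, 4.59%, 3.39% and 4.85% in HSA-LR and 9.40%, 9.89% and 10.8% in treated gastrocnemius. The quadriceps gave 10.4%, 10.1% and 10.5%, then 3.89%, 4.06% and 4.47%, then 10.4%, 10.2% and 9.88%. Treated mice overlapped WT mice in each muscle, and the rise passed the test (log2 FC of 1.23 at adjusted p = 2.9e-07, and 1.28 at adjusted p = 1.32e-05). No transcript of the annotation used here skips this bin.

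Titin, the giant elastic protein of the sarcomere, lost bins 375, 378 and 379 near its 5′ end. Bin 375 (chr2:76964613-76965090), annotated only in an intron-retaining transcript, had usages of 0.0322%, 0.0260% and 0.0312% in WT, 0.00309%, 0.00250% and 0.00280% in HSA-LR and 0.0161%, 0.0176% and 0.0267% in treated gastrocnemius. It was 10.7 times lower in HSA-LR mice there and 5.48 times lower in the quadriceps. Because Ttn is so highly expressed, these small shares still rest on mean WT counts of 325.0 and 307.3. The 3 bins rose on treatment in the gastrocnemius (log2 FC of 2.82, 2.20 and 2.12, adjusted p = 4.87e-19, 3.62e-09 and 1.36e-06), whereas in the quadriceps log2 FCs of 1.56, 1.63 and 1.80 missed the threshold (adjusted p = 0.316, 0.392 and 0.522). The difference between muscles was not called for any of them (adjusted p = 1.0).

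Nebulin, the ruler of the thin filament, lost bins 12 and 48, which are both coding cassette exons. Bin 12 had a mean usage of 1.92% ± 0.213 in WT, 1.02% ± 0.141 in HSA-LR and 1.83% ± 0.270 in treated gastrocnemius (SD, n = 3), and log2 FCs of 0.85 and 0.64 on treatment that missed the threshold (adjusted p = 1.0 in both muscles). Bin 48 rested on 1 mouse, for WT usage was 0.0894%, 0.0464% and 0.320% in the gastrocnemius and 0.0116%, 0.0182% and 0.216% in the quadriceps, with WT mouse 3 far above the other WT mice in each muscle. HSA-LR usage was 0.0231%, 0.0108% and 0.0238%, and treated usage 0.0797%, 0.0230% and 0.0172%, in the gastrocnemius. Its treated usage was called below WT there (log2 FC of -1.92, adjusted p = 4.21e-05), but without WT mouse 3 the log2 FC was -0.78 (adjusted p = 1.0).

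The remaining sarcomeric members were low in their genes. Pdlim5, a Z-disc protein, had a mean usage of bin 8 of 0.0561% ± 0.00777 (SD, n = 3) in WT, 0.0313% ± 0.00215 in HSA-LR and 0.0353% ± 0.00255 in treated gastrocnemius, a recovery of 16.2%. Fhl1, a LIM protein of the sarcomere, had usages of bin 5 of 0.0441%, 0.0324% and 0.0116% in WT and 0.00917%, 0.00584% and 0.00743% in HSA-LR gastrocnemius, beside other bins of the gene at 1820 CPM in WT, 4030 CPM in HSA-LR and 1210 CPM in treated mice.

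Membrane skeleton and microtubule genes held 4 of 26 (15.4%). Clasp1, which stabilizes microtubule ends, had usages of bin 45 of 0.811%, 0.812% and 0.611% in WT, 0.282%, 0.150% and 0.230% in HSA-LR and 0.735%, 0.733% and 0.661% in treated gastrocnemius. Treated values overlapped the WT range, and the exon rose in both muscles (log2 FC of 1.69 at adjusted p = 2.52e-06, and 2.06 at adjusted p = 0.000217). Mapt, the microtubule protein tau, lost the adjacent 87-nt coding cassette exons 11 and 12, which rose together on treatment (log2 FC of 1.16 and 1.21 in the gastrocnemius, 1.26 and 1.31 in the quadriceps, adjusted p from 0.0135 to 0.0856). In Dtna, which encodes alpha-dystrobrevin of the dystrophin complex, bin 22 took 20.1% ± 1.59 of the gene's counts in WT, 10.9% ± 0.943 in HSA-LR and 18.5% ± 1.25 in treated gastrocnemius, and its rise was called in the gastrocnemius (log2 FC of 0.77, adjusted p = 0.0392) and not in the quadriceps (0.62, adjusted p = 1.0), with no called difference between muscles (adjusted p = 1.0).

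Regulators of RNA, transcription and signalling were also represented. Rapgef1, a guanine nucleotide exchange factor, had usages of bin 19 of 1.24%, 1.30% and 1.16% in WT, 0.465%, 0.296% and 0.477% in HSA-LR and 1.20%, 1.26% and 1.02% in treated gastrocnemius. Its rise was 1.49 (adjusted p = 2.23e-10) and 2.02 (adjusted p = 3.96e-15) on the log2 scale. Mef2d, a transcription factor of muscle genes, had a mean usage of bin 9 of 3.52% ± 0.291 in WT, 2.10% ± 0.278 in HSA-LR and 3.44% ± 0.509 in treated gastrocnemius (SD, n = 3), with a rise of 0.74 (adjusted p = 0.0456) and 0.94 (adjusted p = 0.0165). In the same gene, bin 8 moved the other way, from 0.859% in WT to 2.25% in HSA-LR and 0.760% in treated gastrocnemius and from 0.868% to 2.22% and 0.814% in the quadriceps. Bins 8 and 9 thus changed in opposite directions in each muscle. Bin 8 was picked as the Mef2d bin with the largest CPM gain in HSA-LR over WT mice, so its rise there is a description.

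Mbnl1 itself, the splicing factor that the repeats bind, held 3 lost bins, which together made up 0.951 CPM in WT gastrocnemius beside 310 CPM of its other bins. Bin 25 (chr3:60546946-60547136), an alternative noncoding last exon, had usages of 0.0791%, 0.0830% and 0.0805% in WT, 0.0217%, 0.00766% and 0.00758% in HSA-LR and 0.0423%, 0.0929% and 0.0287% in treated gastrocnemius. Its quadriceps usages were 0.0679%, 0.122% and 0.0960%, then 0.00958%, 0.0194% and 0.00487%, then 0.0776%, 0.134% and 0.113%. The rise was called in the quadriceps (log2 FC of 3.24, adjusted p = 7.8e-08) but not in the gastrocnemius (2.26, adjusted p = 0.159), with no called difference between muscles (adjusted p = 1.0). Bins 14 and 47 did not pass in either muscle. Of the 22 eligible genes on the list of RNA-binding and splicing factors, Mbnl1 held a lost bin (4.55%), and of the 16 on the list of transcription and chromatin genes Mef2d did (6.25%). These lists are short, and RNA-binding and chromatin genes that are on neither, such as Cirbp and Kmt2d, also held lost bins.

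Of 11 eligible genes that the study names, Mbnl1 and Atp2a1 held a lost bin (18.2%), on a list that is not independent of these samples. This count is by gene, and the lost bins were not matched to the exons that the study measured. The Mbnl1 bin with usages given above is an alternative noncoding last exon. A list of 44 genes with exons generally named as muscleblind dependent in muscle held 14 genes with a lost bin (31.8%). This list was also chosen with earlier results of these data known, and it counts genes, so a lost bin need not be the named exon. Beside those above, it included Opa1, which fuses mitochondrial membranes, Vps39, a part of a lysosomal tethering complex, and Spag9, a kinase scaffold. Vps39 bin 40 rose in both muscles (log2 FC of 1.42 at adjusted p = 0.00169, and 1.47 at adjusted p = 0.00503). Opa1 bin 9 was called in the quadriceps (1.57, adjusted p = 6.04e-06) and not in the gastrocnemius (0.72, adjusted p = 0.627). Spag9 bin 51 missed in both (0.86, adjusted p = 0.233, and 1.16, adjusted p = 0.256), although its recovery was 96.15% and 131%.

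Genes outside these lists also lost well-covered bins. Emc10, a subunit of a membrane complex of the endoplasmic reticulum, had usages of bin 1, at its 3′ end, of 3.79%, 3.13% and 2.76% in WT, 0.468%, 0.492% and 0.438% in HSA-LR and 1.62%, 2.57% and 1.59% in treated gastrocnemius. It was 6.92 and 6.89 times lower in HSA-LR mice and rose on treatment by 2.03 (adjusted p = 1.87e-10) and 2.38 (adjusted p = 2.39e-12). Spcs2, a signal peptidase subunit, also lost the 3′ end of its last exon, and its bin 1 rose by 1.51 (adjusted p = 6.82e-06) and 1.90 (adjusted p = 1.4e-12). Trappc9, of a vesicle tethering complex, lost bin 24, which rose by 1.70 (adjusted p = 8.54e-08) and 2.26 (adjusted p = 2.17e-11). Epb41, the membrane skeleton protein 4.1, lost its 36-nt bin 15, which rose by 1.58 (adjusted p = 7.8e-10) and 1.49 (adjusted p = 3.79e-07). Nfu1, which assembles iron-sulfur clusters, lost the coding cassette bin 13, which rose by 1.39 (adjusted p = 1.11e-05) and 1.32 (adjusted p = 0.000139). Kcnc1, a voltage-gated potassium channel, had bin 7 at 2.03% ± 0.315 in WT, 0.683% ± 0.119 in HSA-LR and 1.70% ± 0.294 in treated gastrocnemius (SD, n = 3), and its rise was called in the quadriceps (1.66, adjusted p = 1.79e-05) and not in the gastrocnemius (1.32, adjusted p = 0.235).

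A few lost bins carried a large share of their gene. Acyp1 encodes an acylphosphatase, and its first exon, bin 9, took 21.7%, 20.3% and 16.4% of the gene's counts in WT, 6.73%, 8.95% and 7.94% in HSA-LR and 19.9%, 21.6% and 22.4% in treated gastrocnemius. This bin rose by 1.44 (adjusted p = 2.16e-05) and 1.19 (adjusted p = 0.00058). Ctsc, the lysosomal protease cathepsin C, had bin 8 at 23.6% ± 4.52 in WT, 11% ± 1.48 in HSA-LR and 22.1% ± 6.28 in treated gastrocnemius (SD, n = 3). In Tcf20, a transcriptional coregulator, bin 1 was at 22.7% ± 2.43, 11.6% ± 3.84 and 18.9% ± 2.65 in the same groups, and in Atcayos, a noncoding antisense gene, bin 4 was at 19% ± 2.12, 7.78% ± 0.801 and 17.8% ± 2.96. The lost bins of Ctsc, Tcf20 and Atcayos held their own level. Their sums were 5.36, 2.42 and 9.05 CPM in WT gastrocnemius and 5.43, 2.67 and 11.6 CPM in HSA-LR gastrocnemius. The other bins of these genes were higher, at 17.1, 5.9 and 39.3 CPM in WT and 43.5, 16.5 and 139 CPM in HSA-LR. Atcayos values are uncertain because the strand setting of the counting is not given in the sources used here.

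Over all 296 lost bins, the median fold by which HSA-LR usage was lower was 2.23 in the gastrocnemius (range 1.67 to 17.7) and 2.21 in the quadriceps (1.67 to 12.4), and 19 bins of 16 genes were at least 4-fold lower in both. The 2 largest folds in the gastrocnemius, in Klhdc4 and Glrx2, rest on mean HSA-LR counts of 1.33 and 2.33. Median usage was 1.26% in WT, 0.540% in HSA-LR and 1.11% in treated gastrocnemius, and 1.31%, 0.537% and 1.10% in the quadriceps. Of the 167 genes, 110 held 1 lost bin, 37 held 2 and 20 held at least 3, and these 20 genes supplied 112 of the 296 bins. Just inside the limit of 0.6 stood Senp6 bin 51 (HSA-LR to WT ratio of 0.599 and 0.502), Erc1 bin 31 (0.599 and 0.402) and Cpeb1 bin 20 (0.515 and 0.60). Just outside stood Dut bin 11 (0.60 and 0.419), Arfgap2 bin 15 (0.601 and 0.553) and Lin9 bin 11 (0.602 and 0.480).

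**Figure D2:**
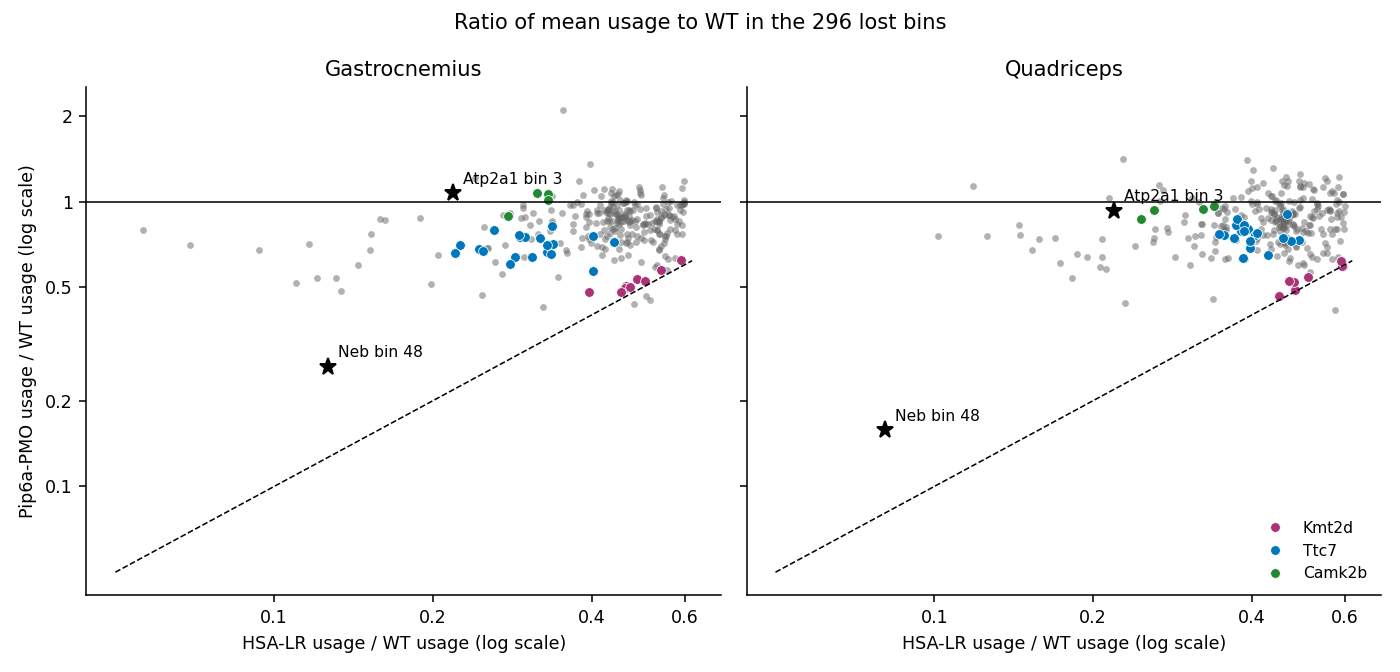
Mean usage of each of the 296 lost bins relative to WT in HSA-LR mice (x axis, log scale) and in treated mice (y axis, log scale), with the dashed line at equal values and the solid line at the WT level. Most bins sit above the dashed line and near the solid line, the 9 Kmt2d bins sit on or close to the dashed line, and Neb bin 48 is the lowest of all in each panel.

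The annotated places of the lost bins were compared with those of all eligible bins, with no test. Of the 211 with coordinates, 27.0% were cassette exons, against 7.10% of 96246 eligible bins with coordinates, and 31.8% belonged to last exons against 15%. Retained introns made up 9.95% against 2.01%, while first exons were at 10.9% against 9.31%. Internal parts that no annotated transcript skips were 11.8% against 61.0%, and coding parts 49.3% against 83.2%. Among coding cassette exons, 40 of 49 lost bins had a length divisible by 3 (81.6%), against 2831 of 6424 eligible ones (44.1%). The YGCY letters were no denser in lost coding cassette exons, at 1.38 per 100 nt against 1.49, and 69.4% held at least 1 against 67.7%, searched on the transcript strand only. The introns beside these exons were not searched, so the values say nothing about motifs there. These shares are descriptions of annotated features, and the 85 lost bins of 25 genes without coordinates here, among them all bins of Ttc7 and Kmt2d, are not part of them.

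A usage falls when the bin falls or when the rest of its gene rises, and the 296 bins contained both. In 203 bins of 127 genes the bin's own level was lower by at least 0.5 on the log2 CPM scale in both muscles, and in 172 bins of 110 genes the other bins of the gene also stayed within 0.5. In 70 bins of 29 genes, by contrast, the bin held its level while the other bins of its gene were higher by at least 0.5 in both muscles. In those 70, the median log2 difference between HSA-LR and WT mice was 0.0269 for the bin and 1.27 for the rest of its gene in the gastrocnemius, and 0.259 and 1.46 in the quadriceps. Of the 70, Ttc7 supplied 20 and Kmt2d 9. The median recovery of the 70 was 55.7% and 55.1%, and 60.4% and 56.5% in the other 41 bins of 27 genes (these genes were set apart after their values were seen), against 78.2% and 75.7% in the 172. The level of macrophage genes given above moved in the same direction as the rest of these genes, and its part was not tested.

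**Figure D3:**
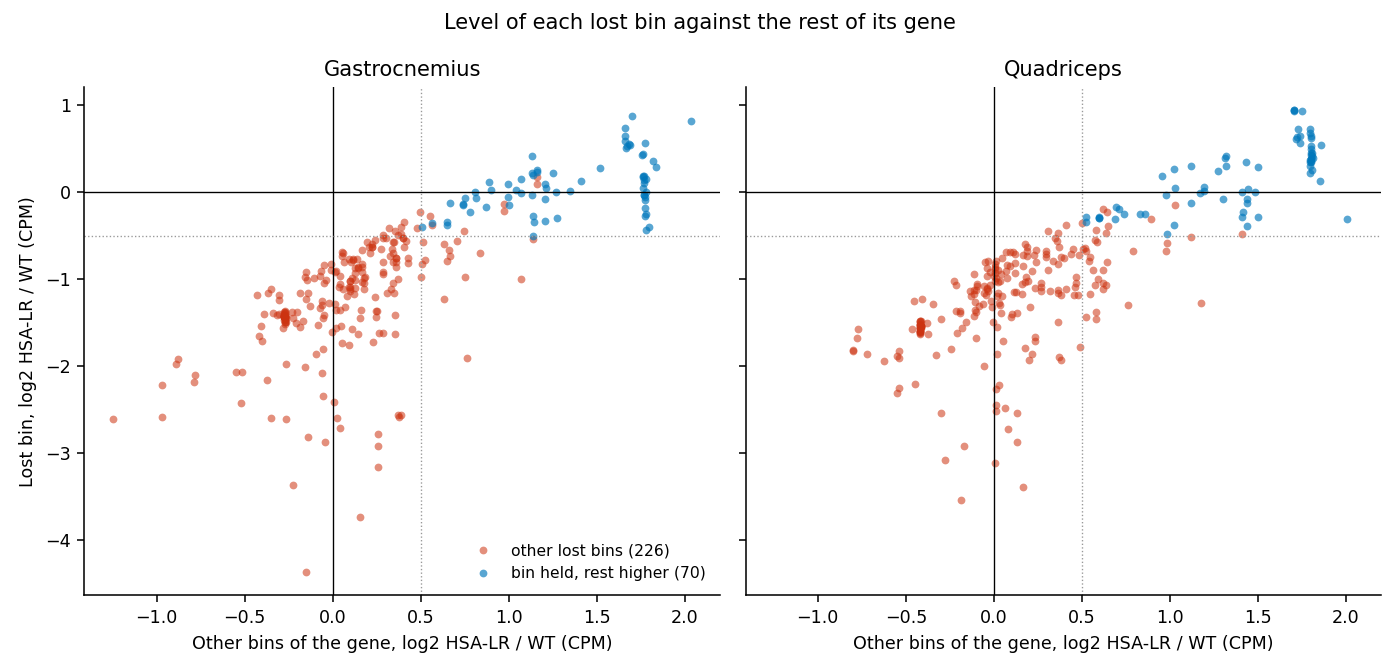
Log2 ratio of HSA-LR to WT mean CPM of each lost bin (y axis) and of the other bins of its gene (x axis), with dotted lines at -0.5 for the bin and 0.5 for the rest. The 70 blue bins held their level while the rest of the gene was higher in both muscles, and the red points are the other 226 bins.

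Ttc7, whose protein belongs to a lipid kinase complex of the plasma membrane, lost 20 bins in its 5′ part, between the 4th and the 27th of 36. These bins summed to 5.33 CPM in WT, 5.42 CPM in HSA-LR and 4.6 CPM in treated gastrocnemius, whereas the other bins of the gene summed to 5.86, 32.1 and 9.09 CPM. The log2 FC of the gene total between HSA-LR and WT was 1.67 in the gastrocnemius and 1.66 in the quadriceps, and between treated and HSA-LR mice it fell by 1.30 and 1.27 (adjusted p = 0.00079 and 0.0043, edgeR). Both are descriptions, because the gene total of HSA-LR mice entered the choice of these bins. Bin 13 had usages of 2.45%, 2.75% and 3.6% in WT, 0.948%, 0.755% and 0.925% in HSA-LR and 2.46%, 2.63% and 1.5% in treated gastrocnemius. edgeR called 12 of the 20 bins above HSA-LR in the gastrocnemius (limma voom 9, the DEXSeq model fitted with DESeq2 2) and 0 in the quadriceps (17 at an unadjusted p under 0.05, and 0 by the other tools). By edgeR, 0.113% of all tested bins were called higher in the gastrocnemius and 0.0787% in the quadriceps. The 20 bins share 1 gene total, so their calls are not separate observations. In this gene the lower usage thus accompanied a gain of the 3′ part, not a lower level of the lost bins.

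Kmt2d, a histone methyltransferase of enhancers, held 9 lost bins whose usage stayed near that of HSA-LR mice on treatment. Its 9 lost bins lie at the 3′ end and had 38.9 CPM in WT, 56.7 CPM in HSA-LR and 48.6 CPM in treated gastrocnemius, while the other bins had 30.2, 159 and 116 CPM. In the quadriceps the other bins had 29.1, 146 and 122 CPM, so treated mice stayed near HSA-LR mice. Bin 2 took 19%, 19.4% and 20.2% of the gene's counts in WT, 7.31%, 7.70% and 8.14% in HSA-LR and 10.1%, 8.99% and 9.01% in treated gastrocnemius. In the quadriceps it took 20.5%, 15.9% and 19.1% in WT, 8.77%, 7.85% and 8.27% in HSA-LR and 8.07%, 8.96% and 8.88% in treated mice. The 9 bins had a median recovery of 7.21% (4.4% to 14.1%) in the gastrocnemius and 3.48% (-0.366% to 10.2%) in the quadriceps. None was called above HSA-LR in either muscle by edgeR (0 of 9, and 0 at an unadjusted p under 0.05), limma voom or the DEXSeq model, with 1 at an unadjusted p under 0.05 by limma voom in the gastrocnemius. The log2 FC of the gene total between HSA-LR and WT was 1.56 and 1.57, again a description, and the total was not called between treated and HSA-LR mice (-0.23, adjusted p = 0.31, and -0.08, adjusted p = 0.687).

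**Figure D4:**
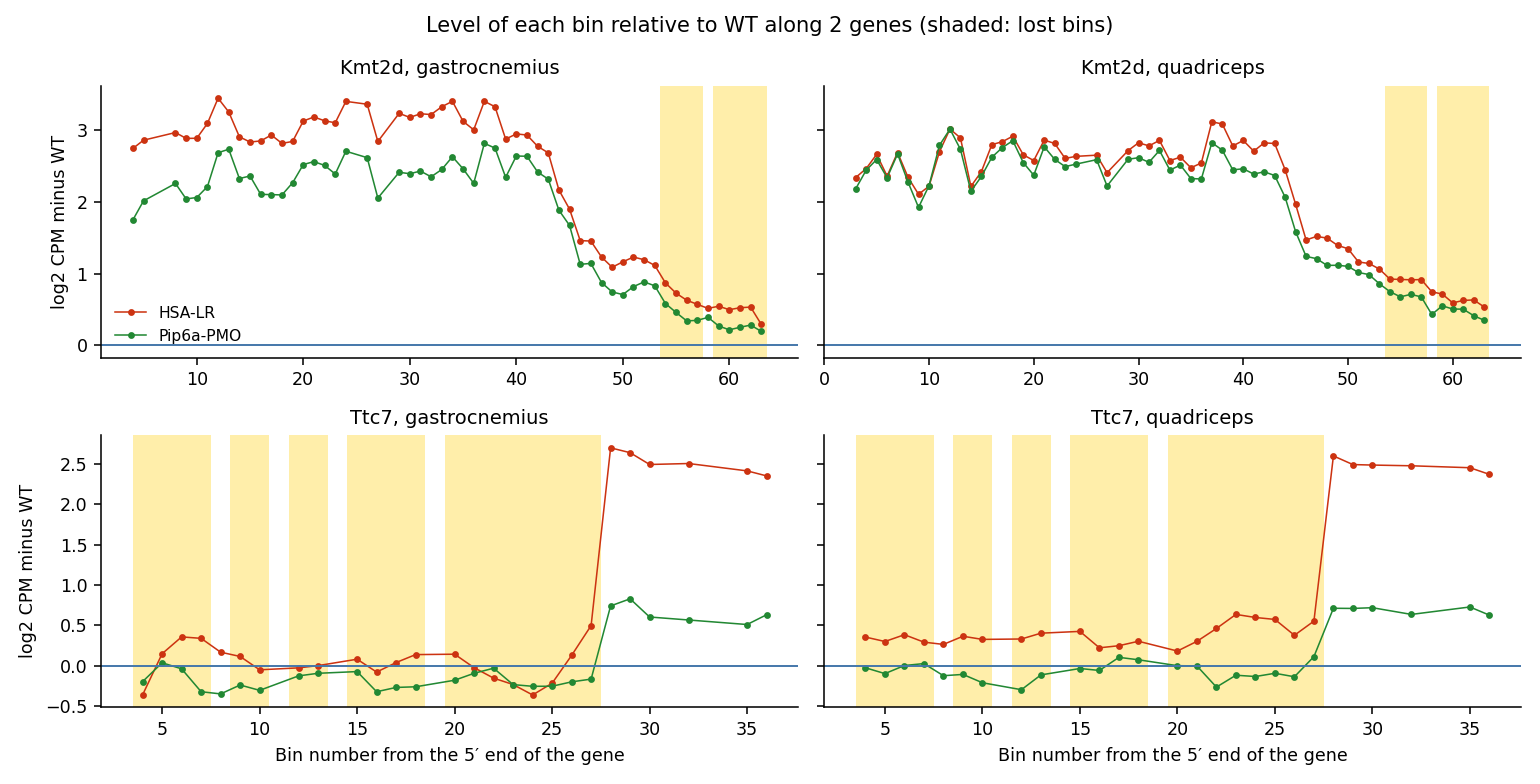
Log2 ratio of mean CPM to WT for each bin of Kmt2d and Ttc7, ordered from the 5′ end, in the HSA-LR and treated groups, with the lost bins shaded and bins under 0.05 CPM in WT left out. Ttc7 steps up after its lost bins. Kmt2d is above WT along its 5′ part in both groups, with treated mice below HSA-LR mice there in the gastrocnemius.

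Among the other genes with several lost bins, 1700123M08Rik held 5 of its 9 bins, with recoveries of 59.3% to 128% in the gastrocnemius. Etl4 held 4, with recoveries from -8.73% to 13.9% in the gastrocnemius and 21% to 50.4% in the quadriceps. Lrrc24 and Rnf115, a ubiquitin ligase, held 4 each, and Cirbp, a cold-inducible RNA-binding protein, held 3 at its 3′ end. The 4 Rnf115 bins lie at its 5′ end and held their level, at 1.96 CPM in WT and 2.26 CPM in HSA-LR gastrocnemius, beside 66.7 and 148 CPM for its other bins. The 112 bins of genes with at least 3 lost bins had a median recovery of 64.4% and 66.9%, against 76.4% and 75.4% for the 184 bins of the other genes.

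Treated mice used most lost bins more than HSA-LR mice did. The log2 FC of treated against HSA-LR mice was above 0 in 293 of 296 bins in each muscle, with a median of 0.935 in the gastrocnemius and 0.955 in the quadriceps. edgeR called 113 bins of 73 genes higher in the gastrocnemius, where 0.113% of all 172719 tested bins were called higher, and 90 bins of 67 genes in the quadriceps, where 0.0787% of 172858 were. In both muscles 62 bins of 50 genes were called. The number edgeR called higher in the gastrocnemius was 62 without HSA-LR mouse 2 and 69 without HSA-LR mouse 3, in place of 113, and that in the quadriceps was 55 without HSA-LR mouse 1 or treated mouse 1 or 2 and 58 without HSA-LR mouse 2, in place of 90. HSA-LR usage was chosen low by the rule, so part of any rise can come with that choice. These counts, like the p-values of single bins, are no independent evidence of a treatment effect. All treated mice lay above all HSA-LR mice in 238 bins in the gastrocnemius and 251 in the quadriceps, against 5.94% and 7.78% of eligible bins.

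Recovery had a median of 72.7% over the lost bins in the gastrocnemius and 72.3% in the quadriceps. The 3 treated mice had medians of 66.5%, 76.8% and 63.7% in the gastrocnemius (mean 69.0% ± 6.92, SD, n = 3) and 66.6%, 68.7% and 84.5% in the quadriceps (73.2% ± 9.78). The order of the mice thus differed between muscles, and the means differed by less than the spread between mice. Treated mouse 3 had the lowest 5′ to 3′ coverage ratio of all libraries in its gastrocnemius (-2.21 on the log2 scale against -1.71 to -1.88 in the others) and treated mouse 1 the highest level of slow fiber genes there (8530 CPM), and the part of either was not tested. Recovery was at least 80% in 107 and 113 bins and under 20% in 20 and 16. The 12 bins under 20% in both muscles were the 9 of Kmt2d and Neb bin 48, Fmnl2 bin 33 and Serpinb6a bin 36. Among bins with a mean WT count of at least 100, the 5 highest recoveries by the mean of both muscles were in Acyp1 bin 9 (116% and 101%), Ppp1r12b bin 9, Spag9 bin 51 and Cog1 bins 25 and 26, of a Golgi tethering complex (113% and 125% for bin 25). Across the 296 bins, Spearman's rho between the muscles was 0.409 for recovery and 0.627 for the fold of loss, over bins that share mice and genes.

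**Figure D5:**
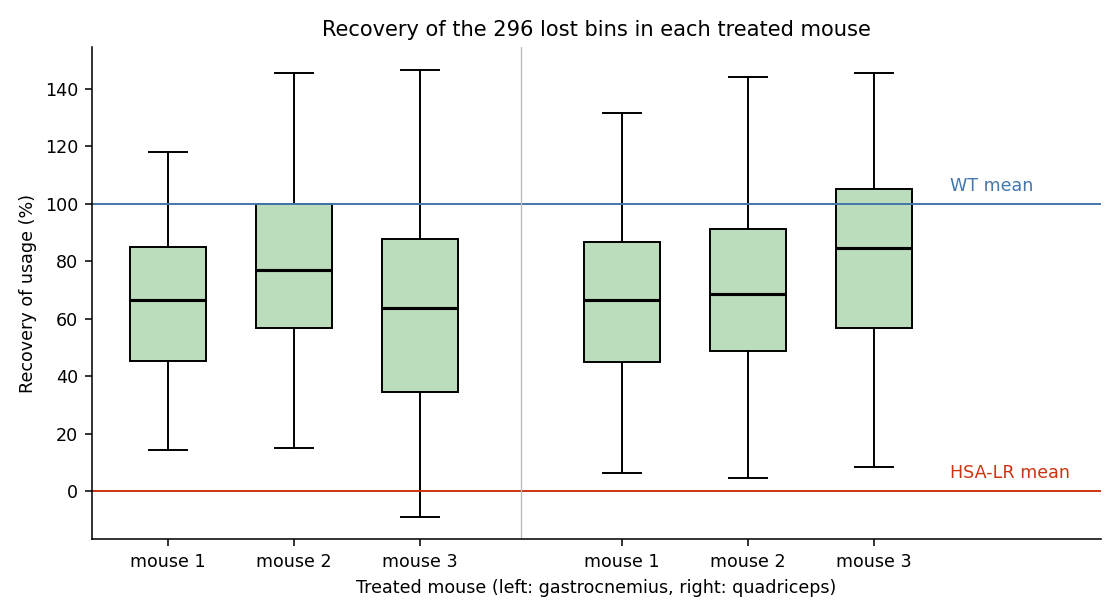
Recovery of usage (percent, 0 at the HSA-LR mean and 100 at the WT mean) over the 296 lost bins in each treated mouse and muscle, with boxes for the quartiles, lines for the median and whiskers from the 5th to the 95th percentile. The medians lie between 63.7% and 84.5%.

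Recovery was also described by class of bin. Coding cassette exons (49 bins of 42 genes) had a median recovery of 87.8% and 80.7%, and 27 and 24 of them were called above HSA-LR. Parts of last exons (67 bins of 55 genes) had 73.5% and 75.4%, with 27 and 34 called. First exons (23 bins) had 67.1% and 66.4%, with 3 and 5 called, and retained introns (21 bins) had 73.7% and 77.7%, with 8 and 7 called. Of all tested bins, 0.113% were called higher in the gastrocnemius and 0.0787% in the quadriceps. Bins of 1 gene share reads and mice, and the rule chose HSA-LR usage low, so these medians and counts are descriptions. Differences between the classes were not tested.

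Few lost bins differed from WT in treated mice by the test. In the gastrocnemius 11 bins were called below WT, where 0.0151% of all tested bins were called lower, and they were 8 of the 9 Kmt2d bins, Asph bins 32 and 33 and Neb bin 48. In the quadriceps 1 bin was called, Kmt2d bin 2, where 0.011% of all tested bins were (log2 FC of -1.09, adjusted p = 0.091). Set against WT, the treated mice nevertheless had a median log2 FC below 0, at -0.23 and -0.25, and all treated mice lay below all WT mice in 86 and 88 bins, against 5.31% and 4.75% of eligible bins, WT usage having been chosen high by the rule. Without WT mouse 3 the gastrocnemius count was 7, and without WT mouse 2 the quadriceps count was 6, so these counts depend on single WT mice.

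The gene total is the denominator of usage and the rule used the same groups, so the numbers of gene totals called between HSA-LR and WT are a description from which nothing is read about the 167 genes. Of the 167 genes, 38 were higher and 17 lower in HSA-LR than in WT gastrocnemius by gene total, where 15.5% of all 15625 tested genes were called, 8.6% higher and 6.94% lower. In the quadriceps 47 were higher and 25 lower, where 20.3% of 15574 were called, 11% higher and 9.31% lower. The gene was called higher in both muscles for 35, and lower in both for 14, and the median log2 FC was 0.05 and 0.01. The log2 FC was -0.47 and -0.46 for Atp2a1, 1.18 and 1.37 for Camk2d and 1.05 and 0.96 for Ctsc. Totals of 89 of the 167 genes were not called in either muscle. The lost bins themselves enter these totals.

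Between the muscles, no lost bin was called different in relative usage in WT mice by edgeR (0 of 296, 2 at an unadjusted p under 0.05). Of 180522 tested bins 0.0432% were called, and the DEXSeq model also called 0 lost bins and limma voom 0. Nor was a difference called between the muscles in the treatment effect (0 of 296, 8 at an unadjusted p under 0.05, and 0 by the other 2 tools), where 0.0155% of tested bins were called. These fits did not pair the muscles of a mouse. With a term for the mouse, edgeR again called 0 lost bins in each comparison, with 12 and 18 at an unadjusted p under 0.05. So few bins were called at all that 0 calls do not show equal usage between the muscles.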

How the data were processed

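The authors deposited 1 table of read counts per exon bin for each of the 18 libraries; the counts are whole numbers and not normalized. Their processing notes list CASAVA, HISAT and featureCounts 1.5.0 with GRCm38, and the annotation release and strand setting of the counting are not given in the sources used here. Entries that name no gene (2.82% to 4.14% of a library) were left out, and 0 columns of per-sample values went unused. Coordinates and sequences come from GENCODE M21 on GRCm38, for bins whose gene had the same bins there.

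Bins were tested with edgeR 4.0.16 (filterByExpr with minimum count 10 and minimum total 15, TMM, quasi-likelihood fit over the 3 groups of a muscle, diffSpliceDGE), and gene totals with its quasi-likelihood test, in R 4.3.3. Calls are at a Benjamini-Hochberg adjusted p under 0.1 over all tested bins or genes. Muscles were compared in a fit of all 18 libraries without a term for the mouse, and in an alternative with it. Alternatives were limma 3.58.1 voom, the DEXSeq model in DESeq2 1.42.0, upper quartile scaling, a minimum count of 1, other sample sets, a replicate block and leaving out each mouse. Tests were checked on simulated data. P-values of gene totals rest on the spread between 3 mice per group. For a bin, diffSpliceDGE pools the spread between mice over the bins of its gene. The p-value of a bin thus does not measure the spread of that bin alone.

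The genes named are those of the study and of the fixed lists, the 12 with the deepest loss (WT usage of at least 0.5% and mean WT count of at least 100), the 6 with the highest WT usage, the 10 with most lost bins, the 5 lowest and 5 highest recoveries, and 3 bins on each side of the limit; a few results are not reported here; Klhdc4, Glrx2, Fmnl2 and Serpinb6a were named after their values were seen. Members and lists were chosen with earlier results of these data known. Deviations from group means correlated between both muscles of a mouse (median r = 0.315, 0.145 to 0.714). Between different mice the median r was -0.166 (-0.607 to 0.389), so the ranges overlap. The numbers were taken to pair the muscles.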

Additional observations from a re-analysis of the deposited data

Results flagged for a closer look

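In 2 lost bins all treated mice moved one way in the gastrocnemius and the other way in the quadriceps. Rictor, of the mTOR kinase complex, had a recovery of bin 5 of 39.3% in the gastrocnemius (11.9%, 32.9% and 73.1% in the 3 mice) and -37.5% in the quadriceps (-59.0%, -6.97% and -46.5%). The mean treated counts were 8.67 and 8.33, and the difference in treatment effect between muscles was not called (log2 FC of -1.67, adjusted p = 1.0, edgeR). Serpinb6a, a protease inhibitor, had a recovery of bin 36 of -13.4% in the gastrocnemius (-5.56%, -5.25% and -29.5%) and 17.9% in the quadriceps (7.4%, 13.6% and 32.7%), and its difference was not called either (0.68, adjusted p = 1.0).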

How the results depend on the processing

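The rule kept 179 bins with the limit on the ratio at 0.5 and 579 at 0.7, 191 with a mean WT count of at least 50, and 317 to 339 bins when a mouse was left out of the choice. Lost bins called above HSA-LR numbered 62 to 131 without single mice in the gastrocnemius (113 with all) and 55 to 103 in the quadriceps (90 with all), and 106 and 115 with a replicate block. Lost bins called below WT numbered 7 to 12 without single mice in the gastrocnemius (7 without WT mouse 3), 5 by the DEXSeq model and 11 with the replicate block. In the quadriceps they numbered 0 to 6 (6 without WT mouse 2 and 0 without each of the other mice), 0 with upper quartile scaling and with the 2 groups alone, 12 by limma voom, 2 by the DEXSeq model and 1 with the replicate block. Genes called by their total numbered 40 to 79 and 51 to 77 without single mice and 47 and 70 with the replicate block. The same number in different groups did not pair mice (median r = -0.12 and 0.0993), and the block is given only for that reason. Median recovery was 65.7% to 74.3% and 66.9% to 77% without single mice, and 79.5% and 80.8% on the log2 scale. Of 113 single results, 68 kept their direction and side of the threshold under every alternative, and 45 did not. For the calls lost or gained, the cause was not tested. Bins with mean counts under about 10 in HSA-LR mice limit how well a fold is known.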
